A study of Mus musculus with 6 samples.

Results

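Krtdap, Calm4, Calml3, Capns2, Sbsn, Dmkn, Gm94, Fam25c, Lor and Ivl are 10 genes best known from the outer layers of stratified epithelium, and were followed here in organoids of mouse esophageal epithelium. They were picked by symbol from the 32285 genes of each table, after Cyto-ID and layer values of these data were known. Their Cyto-ID and layer differences are therefore a description, without a test. Organoids were founded by basal cells of C57BL6 mice that had been sorted for integrin-b1, a basal cell surface protein, and against DAPI, which enters dead cells. The sort split these cells by a low or a high signal for Cyto-ID, a dye of autophagic vesicles. After 15 days in Matrigel, cells of each group gave 3 droplet 3′ libraries, labelled F2, M3 and F6 as replicates in both groups. Groups are called Cyto-ID Low and Cyto-ID High after the founder cells, and share strain, medium (with EGF, Noggin, R-Spondin and Y27632) and culture time. The age of the mice, and whether a library came from 1 animal, were not given in the sources used here.

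In stratified epithelia, cells leave the basal layer, raise keratins of the suprabasal layers and at last replace their membrane by an envelope of cross-linked protein. Loricrin (Lor) and involucrin (Ivl) are precursors of that envelope. Suprabasin (Sbsn), dermokine (Dmkn) and Krtdap are secreted proteins of differentiating keratinocytes whose genes sit together as one locus. Calm4 and Calml3 are calmodulin-like calcium sensors, and Capns2 is a small regulatory subunit of calpain proteases. Esophageal suprabasal cells are marked by Krt13, whose level was used to place each cell.

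Genome positions of the 10 genes are given on GRCm38.p6, the build of the RefSeq tables, and the submitters' processing notes name mm10. Sbsn (chr7:30732674-30756134), Dmkn (chr7:30763756-30781066) and Krtdap (chr7:30787905-30791089) lie in a row on the plus strand. Gaps of 7.621 kb and 6.838 kb separate them, with 0 genes between. Calml3 (chr13:3802893-3804318) and Calm4 (chr13:3837757-3838671) are 33.438 kb apart, with 1 gene (Gm40655) and 0 protein-coding genes between. Lor (chr3:92080271-92083142) and Ivl (chr3:92570899-92573790) lie on the minus strand of the epidermal differentiation complex, with 487.756 kb and 16 protein-coding genes between them. Capns2 (chr8:92901395-92902409) overlaps Lpcat2 and Fam25c is at chr14:34351882-34358339. In 91-base windows over the last 500 bases of each gene's transcripts, 0% matched another gene, except for Sbsn, where 17.1% matched Tmem147os. Sbsn also overlaps Gapdhs. Counts of Sbsn, and through the overlap with Lpcat2 those of Capns2, are less certain than those of the others.

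Start-site sequences show that these genes do not share one promoter layout. RefSeq windows of 300 bases were matched for 8 of the 10 genes (all but Calml3 and Gm94), and the 250 bases before and the first 20 bases after the start are printed for 6. The shown set holds the 3 neighbours on chromosome 7, then Calm4 and Capns2, which differed between the Cyto-ID groups, and Ivl, whose groups overlapped. Capitals mark matches to a TATA box (TATAAA, gene strand only), to an AP-1 motif (TGANTCA) or to a C/EBP motif (TTGCNNAA), the last pair searched on both strands, with overlaps allowed.
Krtdap: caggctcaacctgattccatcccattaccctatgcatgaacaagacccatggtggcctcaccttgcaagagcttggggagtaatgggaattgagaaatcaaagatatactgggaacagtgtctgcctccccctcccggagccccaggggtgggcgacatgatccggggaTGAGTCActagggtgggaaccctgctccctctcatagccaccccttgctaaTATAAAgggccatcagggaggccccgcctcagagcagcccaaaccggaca
Sbsn: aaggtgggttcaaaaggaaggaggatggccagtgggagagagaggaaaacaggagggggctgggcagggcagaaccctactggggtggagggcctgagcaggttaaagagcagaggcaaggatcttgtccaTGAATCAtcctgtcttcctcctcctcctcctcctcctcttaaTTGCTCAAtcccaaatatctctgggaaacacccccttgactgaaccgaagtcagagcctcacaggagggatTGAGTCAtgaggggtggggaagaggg
Dmkn: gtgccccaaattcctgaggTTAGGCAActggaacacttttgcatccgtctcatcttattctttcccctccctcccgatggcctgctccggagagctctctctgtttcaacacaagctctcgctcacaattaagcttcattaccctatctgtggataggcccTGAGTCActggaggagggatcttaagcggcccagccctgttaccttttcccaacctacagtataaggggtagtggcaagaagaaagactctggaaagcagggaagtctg
Calm4: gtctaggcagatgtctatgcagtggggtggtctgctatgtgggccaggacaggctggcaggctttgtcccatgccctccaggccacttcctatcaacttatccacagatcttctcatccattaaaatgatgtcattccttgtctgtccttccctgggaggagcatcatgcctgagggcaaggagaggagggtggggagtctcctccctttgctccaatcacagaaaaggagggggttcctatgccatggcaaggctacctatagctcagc
Capns2: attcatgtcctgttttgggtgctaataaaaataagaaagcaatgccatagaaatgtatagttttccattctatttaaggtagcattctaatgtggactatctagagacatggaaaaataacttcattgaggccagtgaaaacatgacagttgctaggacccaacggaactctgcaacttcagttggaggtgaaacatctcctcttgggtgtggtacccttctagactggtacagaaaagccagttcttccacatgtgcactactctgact
Ivl: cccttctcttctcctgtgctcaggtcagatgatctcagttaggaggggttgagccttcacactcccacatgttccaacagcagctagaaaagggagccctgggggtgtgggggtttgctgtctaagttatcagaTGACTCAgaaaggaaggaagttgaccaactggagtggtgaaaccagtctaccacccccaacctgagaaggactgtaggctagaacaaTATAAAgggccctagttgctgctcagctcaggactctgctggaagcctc
Windows printed are, in that order, chr7:30787655-30787924, chr7:30751221-30751490, chr7:30763506-30763775, chr13:3837507-3837776 and chr8:92901145-92901414 on the plus strand and chr3:92573716-92573985 on the minus strand. The Sbsn start shown lies inside the longer gene record above, and the Dmkn start is the first of 3 listed.

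An AP-1 match was found in 6 of the 8 genes (Krtdap, Sbsn, Dmkn, Fam25c, Lor and Ivl), against 7.81% of 32851 promoter windows. It began at base -81 in Krtdap and -116 in Ivl, counted from the start. A TATA box was found in 4 of 8 (Krtdap, Fam25c, Lor and Ivl), against 8.32% of windows, and began at bases -30, -29, -27 and -29. Calm4 and Capns2 held neither. A C/EBP match was found in Sbsn and Dmkn (2 of 8, against 10.8%), and a Grhl motif (AACCNGTT, both strands) in 0 of 8, against 2.09%. The short Klf motif CACCC (both strands, not capitalised) was in 7 of 8 with any start of a gene counted (Dmkn only at the third of its starts, not at the one shown), against 57.5% of single windows. These are letter matches, and binding was not measured.

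Kept cells numbered 25154 of 26808 barcodes, with at least 500 detected genes each. Libraries held 2667 to 5617 cells with a median of 1940.5 to 10038 UMIs (unique molecular identifiers, 1 per captured RNA), and pairs of libraries shared 0 to 8 barcodes. Levels are CPM, a gene's UMIs scaled to a common total per cell and averaged over cells. Levels were not scaled by gene length and are compared mainly between samples. Where genes are set beside each other, the values are of captured UMIs. Cells were placed in a Krt13-low (under 1000 CPM of Krt13), Krt13-middle or Krt13-high layer (5000 CPM or more). A layer is a range, not a cell type, and 11.7% of cells lay within 20% of a boundary. Median depths of Krt13-low cells ran from 1863 to 9698 UMIs, so boundaries rest on fewer Krt13 UMIs in shallow libraries. Layers were not redrawn at matched depth. The Krt13-high share averaged 30.2% ± 2.65 for Cyto-ID Low against 22.7% ± 11.7 for Cyto-ID High (SD, n = 3), and the Krt13-low share 48.4% ± 2.76 against 56.0% ± 14.3. The basal keratin Krt14 (9558 ± 3010 and 10686 ± 4697 CPM) and the esophageal keratins Krt13 (4962 ± 871 and 3932 ± 2323 CPM) and Krt4 (607 ± 95.8 and 552 ± 411 CPM) were abundant in both groups.

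Krtdap was high in all Cyto-ID High libraries and low in all Cyto-ID Low libraries, in each layer. Values are given in the order F2, M3, F6 throughout. Over all cells Cyto-ID Low libraries held 97.3, 59.8 and 28.7 CPM, and Cyto-ID High libraries 844, 793 and 1504 CPM. The groups did not overlap, and the lowest Cyto-ID High library was far above the highest Cyto-ID Low one. Group means were 62.0 ± 34.3 and 1047 ± 396 CPM (SD, n = 3), a 16.9-fold ratio and a log2 difference of 4.26 ± 0.43 (SE, limma on log2(CPM + 1) after trimmed-mean scaling). Within Krt13-low cells the log2 difference was 5.15 ± 0.57, within Krt13-middle cells 4.73 ± 0.55 and within Krt13-high cells 4.14 ± 0.43. It became 5.80 in Krt13-low cells when F2 of Cyto-ID Low was left out, and 4.11 in Krt13-middle cells when F6 of Cyto-ID High was. Both orders held at once: Krt13-low cells of Cyto-ID High organoids (475, 328 and 932 CPM) were above Krt13-high cells of Cyto-ID Low organoids (223, 145 and 67.4 CPM). Whether the Krtdap transcripts in Krt13-low cells were made there was not tested, and shares in mitotic cells are given below.

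**Figure D1:**
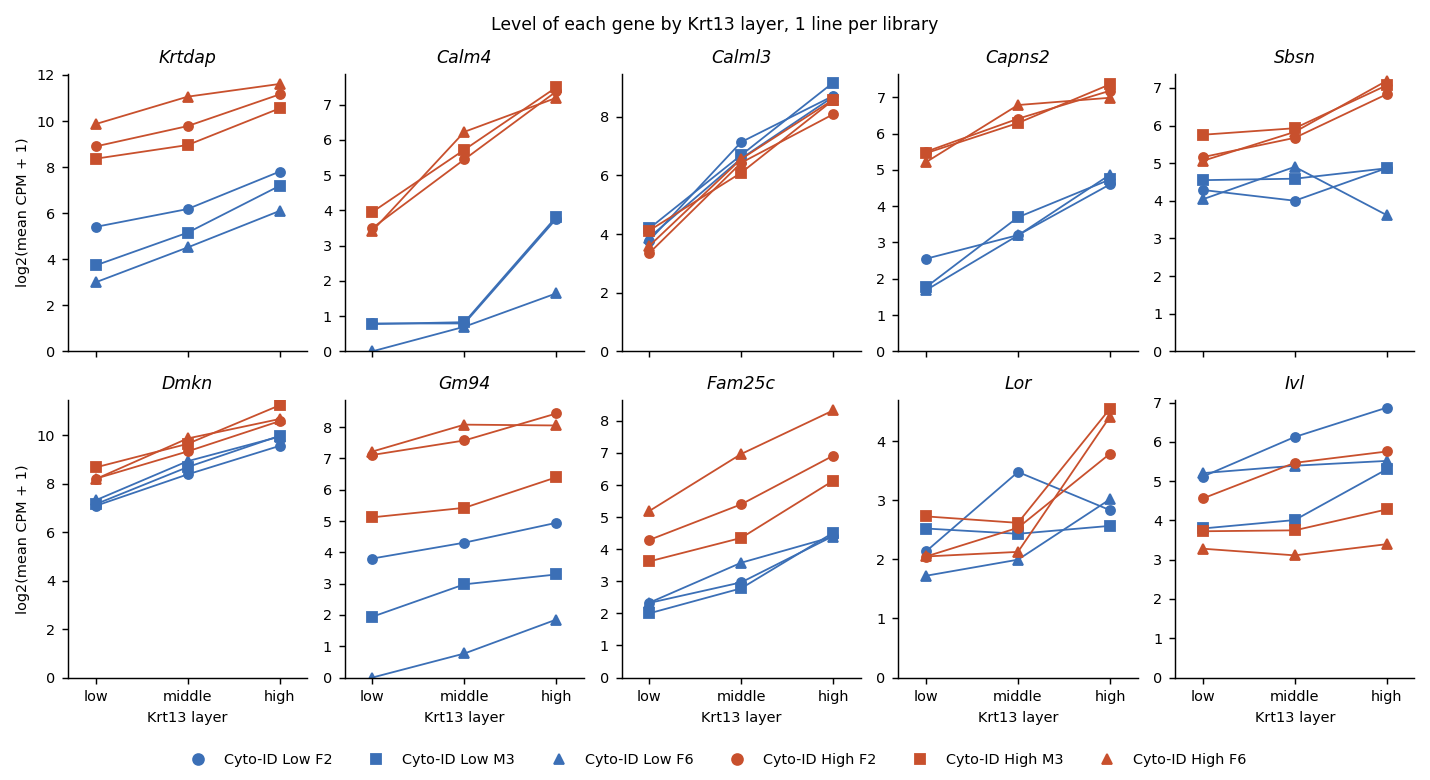
Mean level of each of the 10 genes (y axis, log2 of CPM + 1) in the Krt13-low, Krt13-middle and Krt13-high cells (x axis) of each library, 1 line and marker shape per library, blue for Cyto-ID Low and red for Cyto-ID High. The red lines of Krtdap, Calm4, Capns2, Gm94 and Fam25c run above the blue ones in every layer, those of Calml3 lie close, with the blue lines on top in the Krt13-middle and Krt13-high layers, and Ivl is lower in the Cyto-ID High library of each replicate label.

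Dmkn and Sbsn, the neighbours of Krtdap, were also higher in Cyto-ID High organoids, by much less. Dmkn stood at 348, 480.4 and 480.02 CPM on the Cyto-ID Low side, against 563, 1230.05 and 624 CPM. The groups did not overlap, and M3 of Cyto-ID High stood apart at the top. That library also had the largest share of Krt13-high cells, 36.3%. Within layers, Cyto-ID High M3 was again the highest in Krt13-low (294, 407 and 291 CPM) and Krt13-high cells (1535, 2415 and 1630 CPM). In Krt13-middle cells it was not (644, 801 and 934 CPM). The log2 difference was 0.92 ± 0.38 over all cells and lay between 1.03 ± 0.30 and 1.33 ± 0.24 within the layers. Sbsn stood at 20.4, 24.4 and 16.7 CPM (Cyto-ID Low) against 50.3, 83.9 and 55.1 CPM (Cyto-ID High). Its log2 difference was 1.66 ± 0.27 over all cells, 1.18 ± 0.25 in Krt13-low and 2.64 ± 0.34 in Krt13-high cells. In Krt13-high cells Sbsn was at 28.3, 28.1 and 11.3 CPM in Cyto-ID Low against 113, 133 and 145 CPM in Cyto-ID High.

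The calmodulin-like pair on chromosome 13 split: Calm4 was higher in Cyto-ID High organoids and Calml3 was not. Calm4 stood at 3.96, 4.72 and 0.79 CPM (Cyto-ID Low) against 41.5, 83.4 and 43.4 CPM (Cyto-ID High), a log2 difference of 3.97 ± 0.45. In Krt13-high cells it was at 12.6, 13.2 and 2.13 CPM against 166, 180 and 146 CPM (4.34 ± 0.48, and 3.65 when F6 of Cyto-ID Low was left out). The lowest of these values rests on 8 UMIs in 834 cells of Cyto-ID Low F6, where 0 of 1320 Krt13-low cells had a Calm4 UMI, which allows a share of cells with a captured UMI of up to 0.227% (3 counts of the total). Calml3 stood at 152, 215 and 153 CPM (Cyto-ID Low) against 66.5, 160.3 and 86.8 CPM (Cyto-ID High), with overlapping groups and a log2 difference of -0.70 ± 0.37. On plain CPM, Calml3 was lower on the Cyto-ID High side for 3 of 3 replicate labels and in each layer. In Krt13-low cells its scaled log2 difference was only -0.12 ± 0.27, and turned to 0.12 without F2 of Cyto-ID High. In Krt13-high cells the groups separated, at 419, 574 and 410.4 CPM (Cyto-ID Low) against 271, 380 and 383 CPM (Cyto-ID High; log2 difference -0.38 ± 0.30).

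Capns2 had the smallest SE of the 10 genes over all cells. It stood at 10.6, 12.0 and 11.5 CPM (Cyto-ID Low) against 68.5, 94.8 and 63.7 CPM (Cyto-ID High). The log2 difference was 2.71 ± 0.23 over all cells, 3.53 ± 0.25 in Krt13-low, 3.21 ± 0.27 in Krt13-middle and 2.50 ± 0.25 in Krt13-high cells. Capns1, the widely expressed small subunit of the same proteases, was at 578 ± 165 and 377 ± 138 CPM and did not pass the test (limma adjusted p = 0.72).

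Gm94, a neighbour of Spink5 on chromosome 18 (chr18:43777196-43792878), and Fam25c separated the groups like Krtdap. Gm94 stood at 18.8, 5.67 and 0.95 CPM (Cyto-ID Low) against 181, 53.7 and 189 CPM (Cyto-ID High). Its libraries spread widely within each group, and the log2 difference was 4.38 ± 0.74. Leaving out F2 of Cyto-ID Low took the ratio of group means from 16.6 to 42.6 and the log2 difference to 5.17, and leaving out F6 of Cyto-ID Low took the latter to 3.54. Fam25c stood at 9.05, 9.69 and 10.3 CPM (Cyto-ID Low) against 39.2, 34.3 and 97.9 CPM (Cyto-ID High; log2 difference 2.38 ± 0.38). Its ratio of means was 5.89 and fell to 3.79 when F6 of Cyto-ID High was left out.

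The classic envelope precursors did not follow Krtdap. Lor was scarce, at 5.64, 4.72 and 3.93 CPM (Cyto-ID Low) against 4.99, 11.6 and 6.005 CPM (Cyto-ID High), with overlapping groups (log2 difference 0.59 ± 0.32). Only in Krt13-high cells did its groups separate, at 6.12, 4.92 and 7.08 CPM against 12.8, 22.4 and 20.3 CPM (1.50 ± 0.32). Those Cyto-ID High values rest on 210, 280 and 56 Lor UMIs in 47, 67 and 18 cells. Unthinned shares of Krt13-high cells with a Lor UMI overlapped, at 4.44% ± 1.04 and 4.51% ± 2.29. Thinned shares did not, at 0.51% ± 0.11 and 1.03% ± 0.26. Ivl ran the other way, at 63.9, 21.6 and 39.6 CPM (Cyto-ID Low) against 31.8, 14.5 and 8.66 CPM (Cyto-ID High). Its groups overlapped (log2 difference -1.10 ± 0.45), but the Cyto-ID High library was the lower of the pair for F2, M3 and F6 in every layer. Mean Ivl was 2.27 times as high in Cyto-ID Low, and 3.60 times without the Cyto-ID High replicate F2.

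Across the 10 genes, CPM over all cells did not overlap between the groups for 7, each with Cyto-ID High above Low, and overlapped for Calml3, Lor and Ivl. Of 11645 genes tested, 4.48% separated that way and 8.13% the opposite way. Within Krt13-low cells 7 of the 10 had Cyto-ID High above Low (4.1% of all genes) and 0 the reverse (10% of all genes). In Krt13-middle cells 7 had Cyto-ID High above (3.66%) and Calml3 had Cyto-ID Low above (5.8%). In Krt13-high cells Lor joined those 7 to make 8 (4.85%), and Calml3 was again the 1 with Cyto-ID Low above (8.47%). The limma fit called 20 of those 11645 genes at an adjusted p under 0.05 (0.172%), 20 higher and 0 lower in Cyto-ID High, with 940 at an unadjusted p under 0.05. The 20 included Krtdap, Calm4 and Capns2. Blocking on the replicate label raised this to 68 genes (62 higher, 0.584% of all in either direction), and Sbsn, Gm94 and Fam25c were then among them. Within the layers 3 of the 10 genes passed in Krt13-low cells (0.256% of all genes passed), 3 in Krt13-middle cells (0.122%) and 6 in Krt13-high cells (0.292%), all higher. With the block these counts were 7 (adding Sbsn, Dmkn, Gm94 and Fam25c), 5 (adding Sbsn and Fam25c) and 6, where 0.648%, 0.313% and 0.629% of all genes passed. Since the genes were proposed with this contrast in view, nothing is read from their share of calls.

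**Figure D2:**
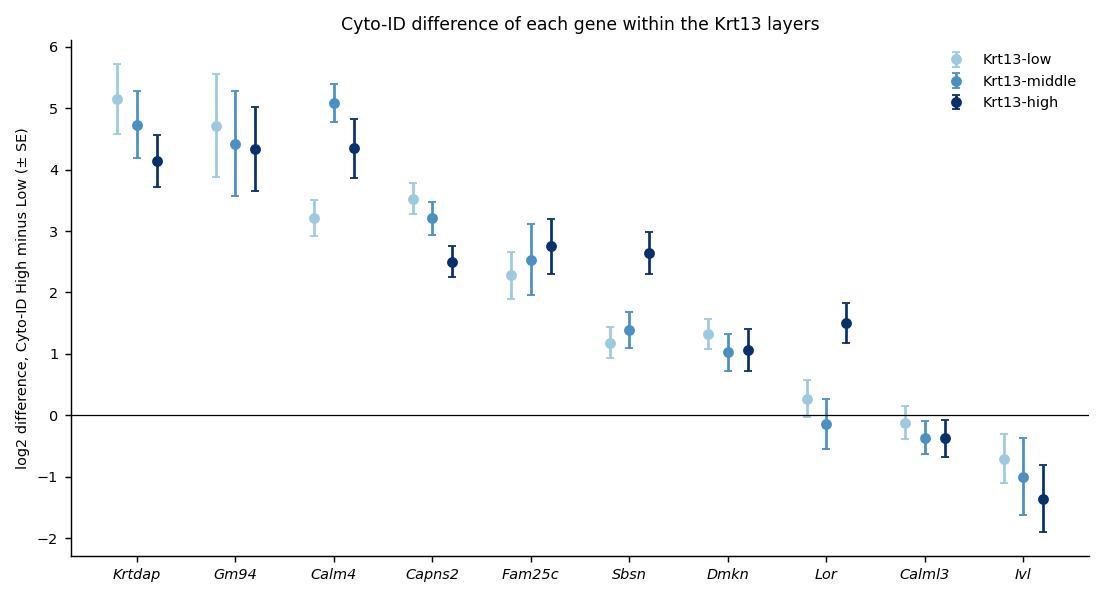
Log2 difference of each gene, Cyto-ID High minus Cyto-ID Low (y axis, points, with bars of 1 SE from the limma fit on 3 against 3 libraries), in the Krt13-low, Krt13-middle and Krt13-high cells (pale to dark blue). Differences run from 5.15 for Krtdap in Krt13-low cells to -1.36 for Ivl in Krt13-high cells, and those of Sbsn and Lor are larger in Krt13-high than in Krt13-low cells.

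Every gene of the 10 was higher in Krt13-high than in Krt13-low cells on average, with very different steepness. Calml3 was the steepest, with a ratio of Krt13-high to Krt13-low CPM between 23.2 and 34.6 over the 6 libraries and a log2 difference of 5.28 ± 0.08 (SE, n = 6). Calm4 followed at 3.49 ± 0.26, then Dmkn (3.04 ± 0.07), Krtdap (2.99 ± 0.18), Fam25c (2.92 ± 0.12) and Capns2 (2.69 ± 0.18). Lor (1.73 ± 0.24), Gm94 (1.70 ± 0.11), Sbsn (1.40 ± 0.25) and Ivl (1.37 ± 0.21) were the flattest, and neighbours in this order differed by less than their errors from Dmkn to Fam25c, between Lor and Gm94 and between Sbsn and Ivl. CPM was higher in 6 of 6 libraries for 9 genes (13.5% of 12040 genes) and in 5 of 6 for Sbsn. All 10 passed the limma threshold, where 61.8% of 12040 genes passed in either direction, 30.9% as higher. The layer fit called 3722 genes higher and 3723 lower. On plain CPM without trimmed-mean scaling, it called 1876 higher and 7082 lower, and the median over all genes was -0.46 in place of -0.03. All 10 genes stayed higher on that scale. The layer contrast was known when the genes were chosen, so nothing is read from these counts either.

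Ratios between the layers were higher in all Cyto-ID Low than in all Cyto-ID High libraries for Krtdap and Capns2 (4.88% of 11776 genes with a ratio in every library), and the reverse for Sbsn and Lor (8.95%). Krtdap rose 5.39, 11.8 and 9.67 times from the Krt13-low to the Krt13-high layer on the Cyto-ID Low side, against 4.80, 4.56 and 3.35 times. Capns2 rose 4.79, 10.7 and 12.7 times against 3.26, 3.79 and 3.49 times. Both were thus flatter in each Cyto-ID High library than in each Cyto-ID Low library. Sbsn did the reverse, with ratios of 1.52, 1.26 and 0.73 in Cyto-ID Low and 3.25, 2.52 and 4.48 in Cyto-ID High. Lor ratios were 1.81, 1.04 and 3.08 against 4.09, 3.99 and 6.48.

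The test of that difference between layers (limma, Cyto-ID by layer) called 10 of 12040 genes (0.0831%), 4 positive (0.0332%) and 6 negative (0.0498%), and 0 of the 10 studied here. For the 10 genes both contrasts were known beforehand, so their interactions are a description: 1.45 ± 0.26 on the log2 scale for Sbsn, 1.30 ± 0.37 for Calm4, 1.24 ± 0.35 for Lor, -1.02 ± 0.22 for Krtdap and -0.98 ± 0.24 for Capns2. Under the replicate block 211 genes passed (1.75%), with Sbsn, Krtdap, Capns2 and Calm4 among them, and nothing is read from that. Of 16 alternatives, the block included, Krtdap was past the threshold in 5, Sbsn in 4, Capns2 in 2 and Calm4 in 1. Besides the block these were the fit without F2 of Cyto-ID Low (Krtdap, Sbsn and Capns2), summed UMIs, thinned cells and terciles (Krtdap), and plain CPM and the fit without the 5% of cells with the most UMIs (Sbsn). The Calm4 interaction turned to -0.31 with a pseudocount of 0.1 CPM, so its sign rests on the treatment of low values.

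At matched depth, more cells of Cyto-ID High organoids carried transcripts of 7 of the 10 genes, while the groups overlapped for Calml3, Lor and Ivl. Each cell was thinned to 1000 UMIs for this count, which left out 347 shallower cells (10 to 115 per library). Krtdap was then found in 3.85%, 3.10% and 1.80% of Cyto-ID Low cells and in 25.5%, 24.9% and 39.0% of Cyto-ID High cells (libraries F2, M3 and F6). Wilson 95% intervals of such shares reached at most 1.74 percentage points to either side over all cells and 4.15 in a layer, and cover counting error only. Unthinned means for Krtdap were 7.66% ± 3.50 and 44.2% ± 9.39 (SD, n = 3). Gm94 was found in 0.63% ± 0.66 and 9.52% ± 4.03 of thinned cells (1.77% ± 1.53 and 18.9% ± 8.62 unthinned). Dmkn was found in 25.5% ± 3.46 and 36.2% ± 8.66 (53.0% ± 6.50 and 60.6% ± 12.0 unthinned, where the groups overlapped). Calm4 was rare in both, at 0.17% ± 0.04 and 2.76% ± 0.67 (0.58% ± 0.34 and 6.33% ± 2.57 unthinned). Thinned shares separated the groups, Cyto-ID High above Low, for the same 7 genes as CPM (4.1% of all genes, with 8.37% the other way), and unthinned shares for 5 (0.361%). Unthinned, Calml3 had Cyto-ID Low above High, at 26.0% ± 2.88 and 15.3% ± 5.23 (0.412%). Thinned, Calml3 (11.6% ± 1.25 and 7.27% ± 3.06) and Ivl (3.26% ± 1.58 and 1.47% ± 0.75) were lower on the Cyto-ID High side in 3 of 3 pairs with overlapping groups, and Lor overlapped at 0.45% ± 0.05 and 0.60% ± 0.15.

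**Figure D3:**
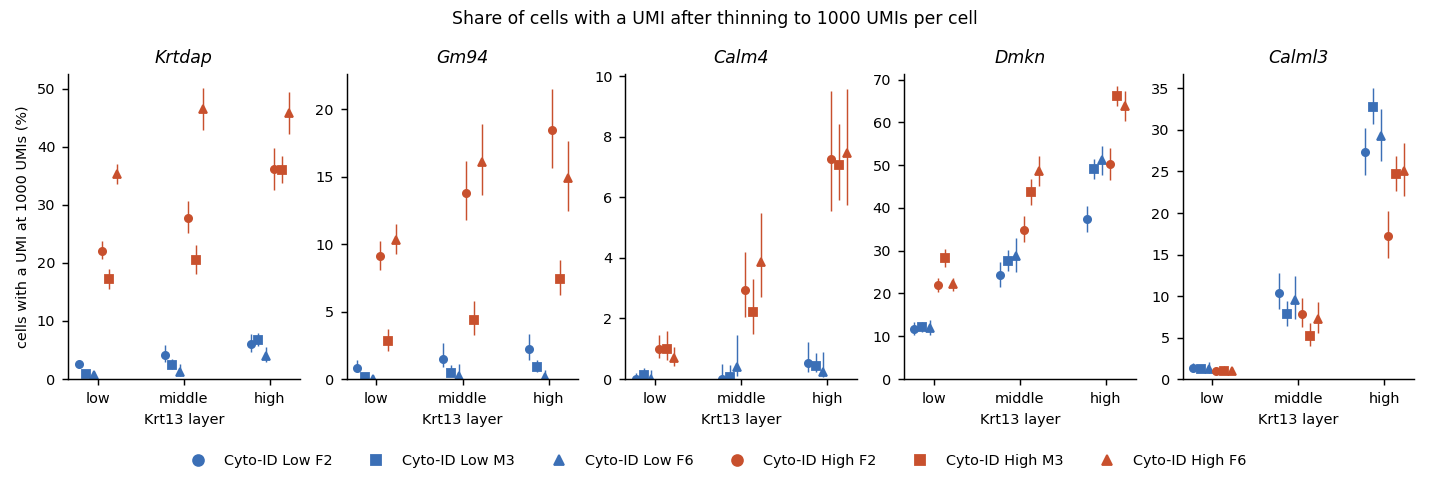
Share of cells with a UMI of Krtdap, Gm94, Calm4, Dmkn and Calml3 (y axis, percent of cells after thinning to 1000 UMIs) by Krt13 layer (x axis), 1 point per library with its Wilson 95% interval. In Krt13-high cells Calm4 lies between 7.06% and 7.45% in the Cyto-ID High libraries and at or under 0.52% in the Cyto-ID Low ones, while Calml3 is the gene with the Cyto-ID Low libraries on top.

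Among Krt13-high cells the shares were 5.60% ± 1.41 and 39.3% ± 5.62 for Krtdap, 0.40% ± 0.14 and 7.26% ± 0.19 for Calm4, and 2.28% ± 0.47 and 11.1% ± 0.90 for Capns2 (thinned, Cyto-ID Low and High, SD, n = 3). Unthinned they were 12.8% ± 4.53 and 52.5% ± 5.77 for Krtdap, 1.27% ± 0.80 and 14.1% ± 4.61 for Calm4, and 9.32% ± 2.64 and 30.1% ± 7.93 for Capns2. Calml3 was found in 29.8% ± 2.77 and 22.4% ± 4.44 of thinned Krt13-high cells (60.6% ± 4.66 and 45.1% ± 4.98 unthinned). Its groups did not overlap in either count, with Cyto-ID Low on top.

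Krt13-low cells with mitotic markers served as a reference, and in Cyto-ID High organoids many of them held Krtdap transcripts. That dividing cells express Krtdap least was assumed, not tested. Krt13-low cells with at least 3 of 8 mitotic markers numbered 1770, or 58 to 493 per library, at median depths of 2868.5 to 13998 UMIs, against 1754 to 9053.5 UMIs for the other Krt13-low cells. After thinning, Krtdap was found in 4.15%, 1.38% and 1.72% of these cells in Cyto-ID Low (F2, M3, F6) and in 31.0%, 10.4% and 41.3% in Cyto-ID High. Unthinned these shares were 13.0%, 5.51% and 3.45% against 69.4%, 24.1% and 56.6%. Thinned shares in all Krt13-low cells were 2.52%, 0.87% and 0.62% (Cyto-ID Low) against 22.1%, 17.2% and 35.4% (Cyto-ID High). The Krt13-low share of Krtdap was thus above this reference in M3 of Cyto-ID High and under it in the other 5 of 6 libraries, and cannot be read as expression there. In Cyto-ID High, mean thinned shares in the mitotic cells and in all Krt13-low cells were, by gene, Capns2 (3.30% and 3.45%), Sbsn (4.10% and 4.01%), Gm94 (9.66% and 7.42%) and Dmkn (21.2% and 24.2%). For the rarer genes they were Calm4 (0.62% and 0.89%), Fam25c (1.49% and 1.86%), Lor (0.78% and 0.38%), Calml3 (0.55% and 0.98%) and Ivl (1.03% and 1.32%). After thinning, Gm94 was at 0% in the mitotic cells of each Cyto-ID Low library (of 193, 363 and 58 cells). The Wilson intervals of these 0% shares reached up to 1.95%, 1.05% and 6.21%. Thinned Gm94 shares in Cyto-ID High were 14.8%, 2.39% and 11.8%. Unthinned, Gm94 was found in 4.15%, 0.28% and 0% of the mitotic cells in Cyto-ID Low against 42.4%, 5.53% and 23.7% in Cyto-ID High.

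The ratios of Krtdap to Calml3 and to Dmkn also changed between layers of a library. Krtdap UMIs per Calml3 UMI were 57.9, 19.4 and 104 in Krt13-low cells and 10.2, 3.91 and 9.70 in Krt13-high cells of the Cyto-ID High libraries. On the Cyto-ID Low side they were 3.41, 0.66 and 0.39 against 0.81, 0.24 and 0.19. Krt13-low cells thus held more Krtdap relative to Calml3 than Krt13-high cells did in 6 of 6 libraries. Krtdap UMIs per Dmkn UMI were 1.75, 0.83 and 3.62 in Krt13-low and 1.58, 0.65 and 2.10 in Krt13-high cells of Cyto-ID High, lower in the Krt13-high layer in 3 of 3 libraries. On the Cyto-ID Low side they were 0.34, 0.078 and 0.039 against 0.44, 0.15 and 0.085, higher there in 3 of 3. The part of free RNA in these shares was not tested.

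Several of the 10 genes were found together in more cells of Cyto-ID High organoids. At 1000 UMIs per cell, at least 1 of the 10 was found in 36.6% ± 2.04 of cells on the Cyto-ID Low side against 55.9% ± 5.99 on the Cyto-ID High side (SD, n = 3). At least 3 were found in 1.62% ± 0.45 and 12.5% ± 1.40. Of Krt13-high cells, 4.35% ± 1.24 and 28.7% ± 4.75 had at least 3, and of Krt13-low cells 0.26% ± 0.36 and 5.63% ± 1.46. None of these groups overlapped. The genes were chosen with this contrast known, and higher shares of single genes raise such counts by themselves. Nothing is therefore read from the counts beyond the single shares.

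**Figure D4:**
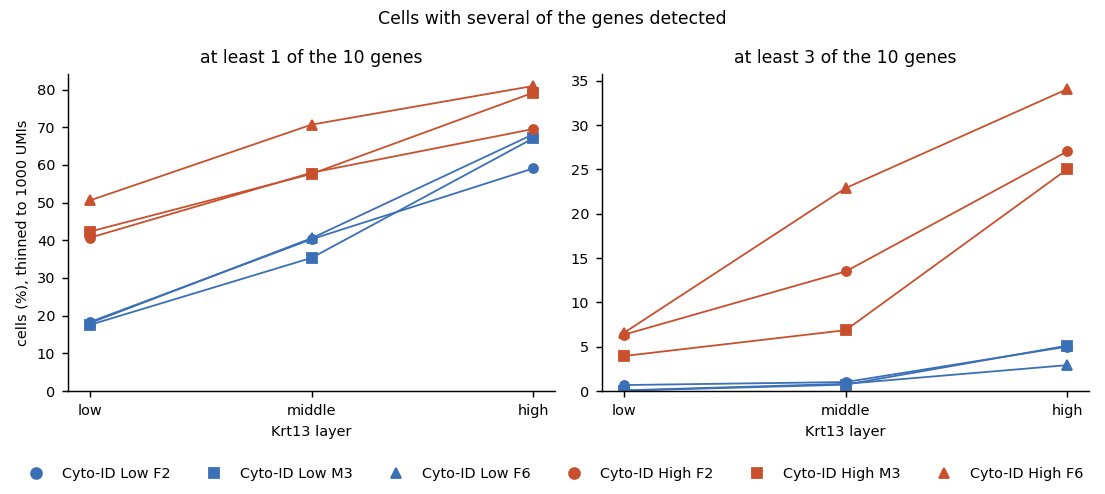
Share of cells with at least 1 (left) and at least 3 (right) of the 10 genes (y axis, percent of cells thinned to 1000 UMIs) by Krt13 layer (x axis), 1 line per library, blue for Cyto-ID Low and red for Cyto-ID High. At least 3 genes were found in 28.7% of Krt13-high cells on average in Cyto-ID High and in 4.35% in Cyto-ID Low.

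Within the Krt13-high layer, cells with a Calm4 UMI more often held most of the other genes, and not Calml3 or Ivl. This split, chosen with values known, was made in the Cyto-ID High libraries, where 49, 114 and 54 thinned cells (F2, M3, F6) had a Calm4 UMI, and not in Cyto-ID Low, where 5, 8 and 2 did. Krtdap was found in 95.9%, 88.6% and 92.6% of Calm4-positive cells and in 31.4%, 32.0% and 42.0% of the others. Wilson 95% intervals were 86.3% to 98.9% against 27.9% to 35.2% in F2. Sbsn was found in 38.8%, 33.3% and 35.2% against 4.65%, 7.13% and 8.05%. Dmkn, Gm94 and Fam25c were more frequent beside Calm4 in each of the 3 libraries. Lor was too, on 2, 4 and 2 Calm4-positive cells and with overlapping intervals, and so was Capns2, which in F6 was nearly equal at 11.1% and 9.99%. Calml3 was found in 6.12%, 18.4% and 22.2% of Calm4-positive cells and in 18.1%, 25.2% and 25.3% of the others. The Wilson 95% intervals of these Calml3 shares overlapped in each of the 3 libraries. Ivl was found in 0%, 0.88% and 0% against 4.49%, 1.67% and 0.75%. That rests on 0, 1 and 0 Calm4-positive cells, and the intervals overlapped in each of the 3 libraries. Krt13 itself was higher in Calm4-positive cells, at 17034, 20502 and 16422 CPM against 11612, 16037 and 12241 CPM.

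**Figure D5:**
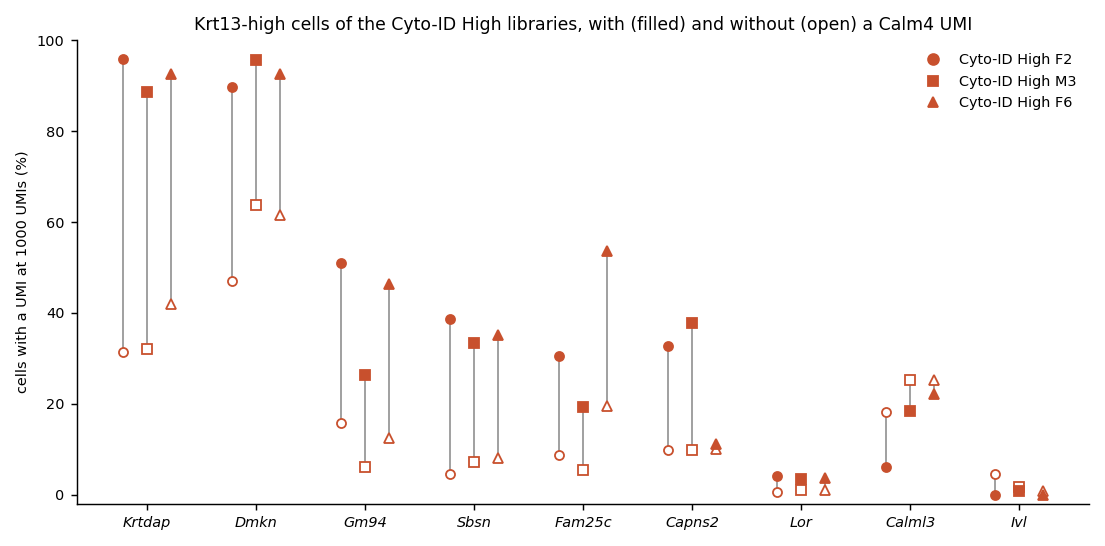
Share of Krt13-high cells of the 3 Cyto-ID High libraries with a UMI of each other gene (y axis, percent after thinning to 1000 UMIs), for cells with a Calm4 UMI (filled) and without (open), joined within a library. Krtdap reaches 88.6% to 95.9% beside Calm4, and Calml3 and Ivl are the genes with the open symbol on top in all 3 libraries.

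Over the 18 means of 6 libraries by 3 layers, Krtdap ran most closely with Capns2 (Pearson r = 0.95), Gm94 (r = 0.95) and Calm4 (r = 0.94) and least with Calml3 (r = 0.31) and Ivl (r = -0.31). Non-members nearest to Krtdap were Gsta2 (r = 0.97), a glutathione transferase, Sprr1b (r = 0.97), a small proline-rich envelope protein, Dsg1b (r = 0.96), a desmosomal cadherin, the metallothionein Mt4 (r = 0.95) and Cstdc5 (r = 0.92). Nearest to the mean of the 10 genes were Sptssb (r = 0.97), a subunit of serine palmitoyltransferase, Endou (r = 0.95), Gm3776 (r = 0.94), Sprr1b (r = 0.94) and Rbp2 (r = 0.94), a retinol-binding protein. Gsta2, Gm3776 and Cstdc5 have close relatives, so their counts are uncertain. The 18 points share libraries, so these values describe and do not test.

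Of 132 other genes of skin barrier formation, 85 were tested over all cells. The fit called 1 higher and 0 lower, where 0.172% of all genes passed, and their median log2 difference was 0.13, beside -0.0023 over all genes. The 1 was Dsg1b, at 0.80 ± 0.57 CPM (Cyto-ID Low) against 11.2 ± 1.55 CPM (Cyto-ID High; log2 difference 2.89 ± 0.28, limma adjusted p = 0.0061, higher in 3 of 3 pairs). Its near-identical copy Dsg1a makes the count of each uncertain, and leaving out F6 of Cyto-ID High gave a limma adjusted p of 0.051, testing low genes too 0.13, and a pseudocount of 0.1 CPM 0.064. In Krt13-low cells Spink5, an inhibitor of skin proteases, was higher too, with 85.8 ± 12.5 against 293 ± 39.6 CPM (1.91 ± 0.22, limma adjusted p = 0.0077). That call was lost without F6 of Cyto-ID Low (0.10), without F2 of Cyto-ID High (0.055) and when low genes were also tested (0.082). Under the block 4 of the 85 list genes passed in all cells, where 0.584% of all genes did: Dsg1b, the lipid transporter Abca12 (1.49, limma adjusted p = 0.021), the fatty acid elongase Elovl4 (1.68, 0.025) and the regulator Ovol1 (1.09, 0.046).

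By list, late envelope proteins had 0 of 9 tested genes called over all cells (Crct1 at 238 ± 41.9 and 197 ± 96.6 CPM, and filaggrin, Flg, at 1.28 ± 0.13 and 3.00 ± 2.09 CPM). Scaffold and cross-linking genes had 1 of 18, Dsg1b. Among the most abundant were Lgals7 (3361 ± 1034 and 5024 ± 931 CPM), Ecm1 (5038 ± 1236 and 2511 ± 982 CPM) and Anxa1 (3259 ± 953 and 1852 ± 595 CPM), none past the threshold. Epidermal keratins had 0 of 3, with 1 difference above 0 and 2 below. Krt23, the most abundant, was at 227 ± 177 and 87.1 ± 75.4 CPM (lower in Cyto-ID High in 3 of 3 pairs), Krt80 at 10.1 ± 5.27 and 7.51 ± 2.71 CPM, and Krt10, the partner of Krt1 in skin, at 17.3 ± 6.56 and 28.8 ± 11.6 CPM (higher in 3 of 3). Krt1 was at 0.13 ± 0.01 and 1.27 ± 0.37 CPM, higher in 3 of 3 pairs, and was too low to be tested over all cells. Barrier lipid genes had 0 of 11, proteases and inhibitors 0 of 15, calmodulin and calpain relatives 0 of 10 and regulators 0 of 19 (Klf4 at 198 ± 30.6 and 222 ± 52.5 CPM).

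By layer, 76 of 93 tested list genes were higher and 7 lower in Krt13-high cells, where 30.9% of all genes were higher and 30.9% lower, with a median log2 difference of 1.68 beside -0.03 over all genes. The lists and the layers were chosen with earlier results of these data known, so nothing is read from these layer counts. Late envelope genes rose in 11 of 11, led by Crct1 (6.21 ± 0.18). Calm2 (-0.95) and Notch1 (-1.45), a receptor of the basal to suprabasal step, were among the lower ones. The interaction was past the threshold for 3 of 93 list genes, where 0.0831% of all genes passed. Tgm3, an envelope transglutaminase, Csta1, a protease inhibitor of the envelope, and Spink5 had a larger Cyto-ID difference in Krt13-low than in Krt13-high cells. The log2 interactions were -1.67 ± 0.18, -1.40 ± 0.15 and -1.46 ± 0.14 (limma adjusted p = 0.0016, 0.0015 and 0.00071). None of the 3 passed when low genes were also tested (limma adjusted p = 0.37, 0.38 and 0.31). Csta1 belongs to a family of near-identical genes, and its count is uncertain. With the block, 4 list genes of 93 passed as higher and 7 as lower, where 1.75% of all genes passed.

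Markers of other cell types were scarce. The summed level of 6 immune markers was 19.0 ± 3.49 CPM (Cyto-ID Low) against 11.3 ± 3.11 CPM (Cyto-ID High), with the defining Ptprc and Cd52 at 0 and 5 of the 6 under 1 CPM in every library. Nearly all of that sum was Cd68, a lysosomal protein of macrophages that other cells also make (19.0 ± 3.50 and 11.2 ± 3.21 CPM). Fibroblast (5 genes, Col3a1 at 0), endothelial (4, Cdh5 at 0), melanocyte (4, Dct and Tyrp1 at 0) and gastric markers (5, Gkn2 at 0) summed to at most 4.23, 0.93, 1.19 and 0.86 CPM in any library. The 8 mitotic markers summed to 97.0 to 292 CPM (Cyto-ID Low) against 312 to 384 CPM (Cyto-ID High). The mitotic sum was thus higher, and Cd68 lower, in each Cyto-ID High library than in each Cyto-ID Low one, and their part in the differences above was not tested. Basal markers summed to 14914 ± 3523 and 15517 ± 4983 CPM.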

How the data were processed

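For every library the authors deposited a gene by barcode table. Its values fit natural log (ln) of 1 plus UMIs divided by the cell's total times 10000, which was read from the deposited tables. Cell Ranger 6.0.0 and Seurat 4 are named in the submitters' processing notes, and filters and counting rules are not given in the sources used here. The UMIs of each cell were recovered from the deposited ln values and used for CPM and thinning. Doublets were not called. Dropping the top 5% of cells by UMIs served as an alternative.

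Genes reaching 1 CPM in 3 or more libraries entered limma 3.58.1 (R 4.3.3) with a mean-variance trend, on log2(mean CPM + 1) after trimmed-mean scaling (30% of log ratios and 5% of levels trimmed), without a block, and with Benjamini-Hochberg adjustment at 0.05. The layer fit used differences within libraries. Fold changes on this scale understate those of low genes. No source says that the libraries came from separate animals, so p-values measure only the spread between these samples. The script was tested on simulated data.

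The 10 genes, the 7 lists of 132 genes and the layers were chosen with earlier results of these data known. Named list genes were those past the threshold in the all-cell or interaction fit and up to 4 of the highest level per list, and a few others named beside them were chosen after their values were seen. Likeness was ranked among genes averaging 5 CPM or more. Deviations from group means correlated at 0.76 (F2), 0.58 (M3) and 0.15 (F6) between same-labelled libraries over 8878 genes. The replicate labels, from the sample titles, were taken as pairing the samples in counts of pairs and in the block, not in the main fit. For F6 the pairing is uncertain, as Cyto-ID High F6 correlated no less with Cyto-ID Low F2 (0.17). Alternatives were other pseudocounts, filters, scalings, layers, cell filters, the block and leaving out each library.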

Additional observations from a re-analysis of the deposited data

Results flagged for a closer look

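The Cyto-ID difference itself differed between Krt13-high and Krt13-low cells for 3 of 93 tested genes of the pathway lists (limma interaction, adjusted p under 0.05, passed by 0.0831% of all genes). Tgm3 differed by -1.67 on the log2 scale, with 5.88 ± 3.08 and 18.3 ± 1.38 CPM in Krt13-low cells of Cyto-ID Low and High and 203 ± 109 and 185 ± 38.5 CPM in Krt13-high cells (SD, n = 3). Csta1 differed by -1.40, with 39.1 ± 5.12 and 228 ± 180 CPM against 579 ± 174 and 1366 ± 1201 CPM. Spink5 differed by -1.46, with 85.8 ± 12.5 and 293 ± 39.6 CPM against 384 ± 51.2 and 521 ± 147 CPM. These 3 lost their calls when genes of low level were also tested (adjusted p 0.37, 0.38 and 0.31) and kept them in the other 15 alternatives run. With 3 libraries per group, single libraries were not tested as outliers.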

How the results depend on the processing

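No called Cyto-ID or layer difference of the 10 genes changed sign in the alternatives run. Uncalled Cyto-ID differences of Calml3 in Krt13-low cells and of Lor in Krt13-middle cells did so with 1 library left out. They ranged from -0.34 to 0.12 and from -0.44 to 0.28. Interactions turned sign with a pseudocount of 0.1 CPM for Calm4 (-0.31) and Dsg1b (-0.41). The small Tgm3 difference over all cells (0.13) was -0.017 with summed UMIs, and -0.29 to 0.57 with 1 library left out, negative without Cyto-ID Low F2 or Cyto-ID High M3 (-0.27). In Krt13-high cells (0.05) it was -0.018 on plain CPM, -0.26 with terciles, and -0.29 to 0.48 with 1 library left out, negative in 4 of 6 cases.

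Counts of called genes moved with the settings, and the cause was not tested. Over all cells the 20 became 5 with a pseudocount of 0.1 CPM, 0 with no filter (1343 at an unadjusted p under 0.05), 12 with summed UMIs, 13 with at least 1000 genes per cell, 68 with the replicate block, and 3 to 20 when 1 library was left out (3 without Cyto-ID High F6). In Krt13-low cells the 30 became 18 (pseudocount), 2 (no filter), 76 (replicate block) and 6 to 30 (1 library left out). In Krt13-middle cells the 14 became 5, 2, 27 with summed UMIs, 36 with the block and 3 to 21. In Krt13-high cells the 32 became 5, 0 with no filter (1137 unadjusted), 21 with at least 1000 genes, 18 with terciles, 69 with the block and 7 to 33. The interaction count of 10 became 0 with no filter (1438 unadjusted), 18 on plain CPM, 20 with summed UMIs, 211 with the block, 25 with thinned cells, 5 with at least 1000 genes, 18 with boundaries at 500 and 10000 CPM, 51 with terciles and 4 to 32. The layer count of 7445 ranged from 6773 to 7389 with 1 library left out. The block changed no call of the 10 genes other than those given above. The 7 genes with separated shares became 8 with the layers weighted equally, an alternative added after seeing the data, 7 at 2 UMIs, and 7 to 8 with 1 library left out. Fewer UMIs in 3 of the libraries limit what can be said of Lor, and of Calm4 in Cyto-ID Low. There Calm4 rests on 12, 8 and 0 UMIs in Krt13-low, 5, 5 and 2 in Krt13-middle and 241, 266 and 8 in Krt13-high cells.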
